A study of Mus musculus with 6 samples.

Results

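The genes described here are the Rab small GTPases of mouse bone marrow-derived macrophages. They were taken from the deposited expression table by name: Rab followed by a number and at most 1 letter and 1 further digit. Of 55401 genes in the table, 59 names fit; Rab27a, Rab32 and Rab38 were left out by rule, so 56 genes on 18 chromosomes remained. The main counts are over the 39 with a mean of at least 1 FPKM (fragments per kilobase of transcript per M fragments, M being 1e6) across all libraries, and each of these 39 also reached 1 FPKM in the mean of either group. The study compared macrophages with reduced Lamtor5 with wild-type (WT) macrophages, 3 libraries each, by RNA sequencing. The macrophages had been induced from bone marrow with M-CSF, the growth factor of the lineage. Lamtor5, also named HBXIP, is a subunit of Ragulator, which holds the Rag GTPases and mTORC1 on the lysosome. The genotype label calls the mutant a Lamtor5 knockdown, and the study's description marks it with LysM, the promoter of Lyz2 that is used to drive Cre in myeloid cells; no source used here gives strain, age or sex, or says whether the WT mice carried Cre.

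Rab proteins are molecular switches that mark the membranes of the cell. In the GTP form they sit on a membrane and recruit effectors such as tethers and motor adaptors, exchange factors load the GTP, and GTPase-activating proteins end the active state. In macrophages a Rab5-to-Rab7 succession accompanies the maturation of endosomes and phagosomes, Rab7 acts at the fusion with lysosomes, and other Rabs serve the endoplasmic reticulum, the Golgi, recycling and secretion.

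Per library, 26 to 28 M read pairs had been sequenced, and the estimated counts summed to between 75.8 and 83.2 M. Lamtor5 itself was at 25.6, 27.1 and 24.8 FPKM in the knockdown libraries and at 55.9, 54.5 and 56.2 FPKM in the WT libraries, a fall of 1.06 ± 0.08 (SE) on the log2 scale (edgeR adjusted p = 0.00963). The third knockdown library stood apart in Lyz2, at 73.6 FPKM beside 11356 and 10650 FPKM in the other two and 22454 to 29379 FPKM in WT. The call of many genes rested on WT replicate 2: without it edgeR's quasi-likelihood test called 0 genes (smallest adjusted p = 0.0616, with 4065 genes at an unadjusted p under 0.05), where DESeq2 called 2247. All 10 macrophage markers were at or above 1 FPKM on average, with 1 higher and 7 lower in the knockdown. All 8 cell cycle markers were lower, their summed level being 19.0 to 44.9 FPKM in the knockdown and 107.3 to 253.7 FPKM in WT. Summed levels of neutrophil markers (81.3 to 129.5 FPKM in the knockdown, 102.8 to 156.1 in WT) and osteoclast markers (52.8 to 100.7 and 70.0 to 84.8, with Calcr at 0) overlapped between the groups, and each list of dendritic, B, fibroblast, and T and NK cell markers (Cd3g at 0) summed to at most 9.46 FPKM in any library. Within the neutrophil list Ltf was called lower and Mpo higher, with log2 fold changes of -1.76 and 0.95 (edgeR adjusted p = 0.0153 and 0.0346).

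Rab7 carried the most Rab mRNA in every library. Its FPKM made up 19.3% to 23.9% of the summed FPKM of all 56 genes, a sum that ran from 1045 to 1085 in the knockdown and from 1008 to 1050 in WT. Below Rab7 in mean FPKM, a level per length of transcript, came Rab5c at 79.8, Rab1b at 66.6, Rab1a at 64.2, Rab31 at 51.6, Rab8b at 50.1, Rab10 at 47.2, Rab2a at 40.3, Rab5b at 39.4, Rab7b at 31.2, Rab9 at 28.9 and Rab35 at 24.9. Several neighbours in this order lay so close that their ranges over the libraries overlapped, among them Rab1b and Rab1a, Rab31 and Rab8b, and Rab2a and Rab5b. These leading genes serve early endosomes, the endoplasmic reticulum and Golgi, secretion, and late endosomes, so no single compartment held the top of the order. Of the 56 genes, 27 had a mean of at least 10 FPKM, 33 of at least 5 FPKM, and 17 were below 1 FPKM. The gene just above that minimum was Rab27b at 1.54 FPKM and those just below were Rab44 at 0.919 and Rab15 at 0.557 FPKM.

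**Figure D1:**
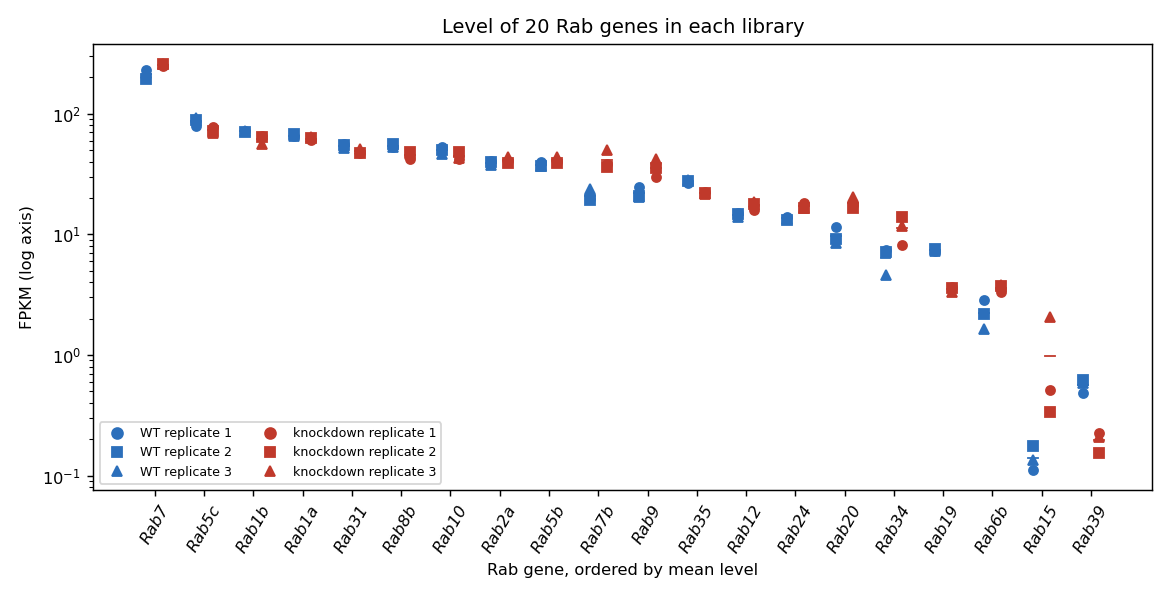
Level of the 20 Rab genes named by rule in each library (FPKM, logarithmic axis), ordered by mean level, with WT in blue, the knockdown in red, circle, square and triangle for replicates 1, 2 and 3, and short lines for group means. Rab7 lies above all others at 194.2 to 257.5 FPKM, and Rab15 and Rab39 lie lowest. The groups stand clearly apart for Rab7b, Rab20 and Rab19, and also for the low Rab15 and Rab39.

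Most Rab mRNAs lay close to their WT level in the knockdown, 28 of 39 with a log2 fold change smaller than 0.3 in either direction. In all, 5 of 39 passed the threshold, an adjusted p under 0.05 in edgeR's quasi-likelihood test. Rab7b, Rab20 and Rab9 rose; Rab19 and Rab35 fell. These 5 are 12.8% of the 39; of all 11486 genes tested at the same minimum, 15.0% were called, 6.1% higher and 8.86% lower. The Rab genes were thus called at a share near that of all genes. The groups of libraries did not overlap for 22 of the 39, 11 higher and 11 lower in the knockdown, or 56.4%, where the share over all genes was 44.0% (17.1% higher, 26.9% lower). The median log2 fold change, knockdown over WT, was 0.11 for the 39 genes and -0.02 for all genes. Another 34 were not called: their log2 fold changes ran from -0.26 to 0.86 and their adjusted p from 0.0501 to 0.943. Standard errors had a median of 0.11, so changes of the size seen for most members could not be told from library spread here.

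Rab7b, a late endosomal Rab that acts in traffic between endosomes and the trans-Golgi network and is known for limiting Toll-like receptor signalling in macrophages, rose the most of the 39. It lies at chr1:131688695-131715439 on the plus strand (GRCm38; ENSMUSG00000052688). It was at 38.3, 36.2 and 50.2 FPKM in the knockdown and at 19.6, 19.2 and 23.9 FPKM in WT. Every knockdown library was above every WT library, and the third was the highest. The log2 fold change was 1.04 ± 0.16 (SE), with an adjusted p of 0.0152 in edgeR. Leaving out libraries ended this call without knockdown replicate 1 and without WT replicate 2; without knockdown replicate 3 it stood at a log2 fold change of 0.87. Rab7b thereby made up 13.4%, 12.4% and 16.3% of the combined FPKM of Rab7 and Rab7b in the knockdown libraries, and 7.81%, 9.01% and 9.81% in the WT libraries.

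Rab20, an interferon-responsive Rab of early endosomes and phagosomes, lies at chr8:11453518-11478710 on the minus strand (ENSMUSG00000031504). Its levels were 17.6, 16.5 and 20.4 FPKM in the knockdown and 11.5, 9.18 and 8.40 FPKM in WT. The groups were well apart, with the smallest gap between knockdown replicate 2 and WT replicate 1. The log2 fold change was 0.95 ± 0.17 (SE; edgeR adjusted p = 0.0203). The call held in 2 of 6 edgeR fits that each left out 1 library (lost without knockdown replicate 1 or 3 or WT replicate 2 or 3; log2 fold change 0.85 to 1.11) and in 6 of 6 such fits by DESeq2.

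Rab9, which returns mannose 6-phosphate receptors from late endosomes to the Golgi, lies on the X chromosome at chrX:166457253-166479867 on the minus strand (ENSMUSG00000079316). It was at 29.7, 35.6 and 41.9 FPKM in the knockdown and at 24.9, 20.7 and 20.4 FPKM in WT. The 3 knockdown libraries were all higher but spread widely, and the first lay closest to WT. The log2 fold change was 0.75 ± 0.15 (SE; edgeR adjusted p = 0.0292). The call held in 1 of 6 edgeR fits with a library left out, the one without WT replicate 1, and in 6 of 6 by DESeq2. Xist, the RNA of the inactive X chromosome, was at 23.7 to 26.5 FPKM in the knockdown and at 25.0 to 38.4 FPKM in WT, so all 6 libraries held female RNA. The paralog Rab9b was listed at 0 in all 6 libraries.

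Rab19, a Golgi-associated Rab studied less than its relatives, fell the most of the 39. It lies at chr6:39381175-39390380 on the plus strand (ENSMUSG00000029923). It was at 3.68, 3.62 and 3.32 FPKM in the knockdown and at 7.31, 7.55 and 7.32 FPKM in WT. The libraries of each group lay close together and the groups far apart. It fell by 1.01 ± 0.12 (SE) on the log2 scale (edgeR adjusted p = 0.0103), and the call was lost only when WT replicate 2 was left out (adjusted p = 0.0616), which ended every call of edgeR.

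Rab35, which acts in fast recycling to the plasma membrane and in actin-rich protrusions and phagocytic cups, fell slightly. It lies at chr5:115631908-115647736 on the plus strand (ENSMUSG00000029518), and the microRNA gene Mir7030 lies within the same interval and strand. It was at 22.7, 22.1 and 21.7 FPKM in the knockdown and at 26.9, 27.9 and 28.4 FPKM in WT. The gap between groups was small in size yet larger than the spread within them. The log2 fold change was -0.28 ± 0.07 (SE; edgeR adjusted p = 0.0499). The call was on the edge of the threshold and held in 0 of 6 edgeR fits and 2 of 6 DESeq2 fits with a library left out.

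**Figure D2:**
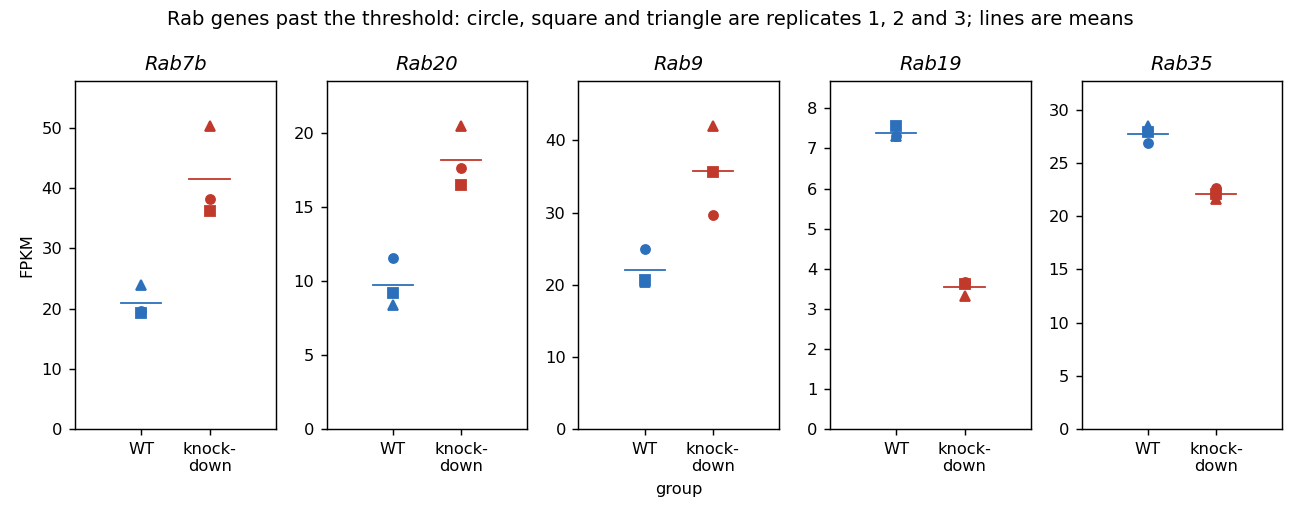
Level (FPKM, linear axis from 0) of Rab7b, Rab20, Rab9, Rab19 and Rab35 in each library, with circle, square and triangle for replicates 1, 2 and 3 and lines for group means. In all 5 panels the knockdown and WT points do not overlap, and in Rab7b, Rab20 and Rab9 the third knockdown library is the highest.

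Among members sorted by their best-known compartment, those of late endosomes, lysosomes and autophagy held 2 of the 3 genes that rose. Of these 12 genes, 7 reached 1 FPKM. Among the 7, 2 rose (Rab7b and Rab9), none fell, and the median log2 fold change was 0.37. Rab39, of the same group but below 1 FPKM, was called lower, with a log2 fold change of -1.45 (edgeR adjusted p = 0.0267). For 6 of the 7 every knockdown library was above every WT library. Over all genes, 6.1% were called higher and 17.1% were apart and higher. This grouping was made with earlier results of these data known and carries no test. In the table's own gene ontology annotation, 8 members at or above 1 FPKM carried the lysosome or late endosome term; 2 were called higher and none lower, with a median of 0.45. Rab20, Rab7b and Rab9 gave the 3 higher and 0 lower calls among 14 members with the phagocytic vesicle term (median 0.19), and the Golgi apparatus term held the same count, 3 higher and 0 lower, among 21 members (median 0.15). There were 0 calls among 7 members with the autophagy term (median 0.15), 9 with the early endosome term (median -0.03) and 11 with the recycling endosome term (median 0.10). The cell cycle markers moved with the groups too, and their part in these values was not tested; in bulk RNA, fewer cells of a type and less RNA per cell cannot be told apart.

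Rab7, which directs fusion of late endosomes, phagosomes and autophagosomes with lysosomes, was at 248.2, 256.5 and 257.5 FPKM in the knockdown and at 231.5, 194.2 and 219.8 FPKM in WT. The groups did not overlap, yet the log2 fold change of 0.29 ± 0.10 (SE) did not pass (edgeR adjusted p = 0.0972). The processed pseudogene Rab7-ps1 was listed at 15.4 to 21.5 FPKM and could share reads with it. Rab24, an atypical Rab linked to autophagy, was at 18.0, 16.5 and 16.6 FPKM in the knockdown and at 14.1, 13.3 and 13.5 FPKM in WT. This separation missed the threshold narrowly, with a log2 fold change of 0.37 ± 0.09 (SE) and an edgeR adjusted p of 0.0501. Rab24 overlaps Prelid1 on the opposite strand, which was far more abundant at a mean of 106.6 FPKM with a log2 fold change of -0.11.

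Rab34, which acts in lysosome positioning and phagosome maturation, was at 8.24, 13.9 and 11.7 FPKM in the knockdown and at 7.43, 7.15 and 4.57 FPKM in WT. The knockdown libraries were above WT but spread over a wide range, and the log2 fold change of 0.86 ± 0.25 (SE) did not pass in edgeR (adjusted p = 0.0680). Rab12, linked to lysosomal degradation of recycling receptors, was at 15.8, 17.9 and 18.5 FPKM in the knockdown and 15.2, 14.7 and 13.9 FPKM in WT, with a log2 fold change of 0.30 ± 0.09 (SE; edgeR adjusted p = 0.0799). The exception in this group was Rab29, a Golgi and lysosome Rab known for its relation to the kinase LRRK2, named after its values were seen. It was at 16.1, 17.1 and 14.7 FPKM in the knockdown and at 21.1, 12.03 and 17.3 FPKM in WT, so the WT libraries spanned the whole range. DESeq2 called Rab24, Rab34 and the Golgi gene Rab6b in addition to the 3 higher genes.

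Rab24 and Rab20 are also 2 of the 5 members whose promoter window held the letters CACGTG, the core of the element bound by TFEB and related factors that drive lysosomal genes. Windows of 250 bases before to 50 bases after the start site were taken from RefSeq (GRCm38.p6) for 46 of the 56 genes; no entry was matched for Rab2a, Rab4a, Rab7b, Rab18, Rab26, Rab27b, Rab30, Rab36, Rab37 and Rab44. CACGTG was found, on either strand, in Rab20, Rab21, Rab23, Rab24 and Rab5a, or 5 of 46 members, and in the windows of 8.09% of all 27025 gene symbols (7.15% of 32851 windows, as a gene can have several). The longest stretch around it that 3 members shared, read from their windows, was the palindrome GTCACGTGAC, present in Rab21, Rab24 and Rab5a. Its letters were taken from these members, so their count says nothing beside the 0.37% of all symbols (0.326% of windows) that hold it. The stretches around these matches are shown because Rab24, Rab21 and Rab5a share all 10 letters and Rab20 only the core; capitals mark the matched letters, and sequences run 5′ to 3′ on the gene's strand.
Rab24, chr13:55321961-55321990, minus strand: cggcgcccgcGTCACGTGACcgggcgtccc
Rab21, chr10:115315595-115315645, minus strand: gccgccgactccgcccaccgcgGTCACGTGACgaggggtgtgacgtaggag
Rab5a, chr17:53479097-53479186, plus strand: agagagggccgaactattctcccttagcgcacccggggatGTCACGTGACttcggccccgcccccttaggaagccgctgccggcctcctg
Rab20, chr8:11478671-11478696, minus strand: gccgggcaccCACGTGgtcgcagggc

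Counting the RefSeq start base as 0, the match began at 0 in Rab24 and at -46 in Rab20. It began at -32 in Rab21 and at -97 in Rab5a. RefSeq starts can differ from the deposited gene intervals. The Rab20 stretch lies inside its deposited interval, and the Rab24 stretch lies upstream of its own. The Rab24 and Rab20 stretches overlap annotated exon. The genes with the full palindrome were not alike in the expression data. Rab5a, the Rab of early endosome fusion, had a log2 fold change of 0.18 ± 0.08 (SE; edgeR adjusted p = 0.205), and Rab21, which acts in integrin endocytosis, had 0.11 ± 0.08 (SE; edgeR adjusted p = 0.386), both below that of Rab24. A match describes letters in a window, not binding. The other letters searched, on both strands, were TCACGTG (4 members, 4.29% of all symbols), TCACGTGA (3 members, 1.12%), the AP-1 type element TGAGTCA (3 members, 5.95%) and CCCTCCC (16 members, 23.8%); the first and second overlap with CACGTG.

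Of the 13 early endosome and recycling members at or above 1 FPKM, Rab20 rose and Rab35 fell, and the median log2 fold change was 0.11. These calls are 15.4% of the 13, near the 15.0% called among all genes at that minimum. Rab5c, the most abundant early endosome Rab, was at 77.7, 72.4 and 69.4 FPKM in the knockdown and 78.8, 88.2 and 92.5 FPKM in WT. Its groups did not overlap, but the log2 fold change of -0.19 ± 0.09 (SE) did not pass (edgeR adjusted p = 0.190). Rab5b stood at 39.4 to 43.7 FPKM against 37.0 to 39.5 FPKM, so its groups overlapped by a narrow margin. Rab5c accordingly made up 58.5% ± 2.50 (SD, n = 3) of the summed FPKM of Rab5a, Rab5b and Rab5c in the knockdown and 64.4% ± 2.71 in WT, while the sum itself was 125.0 ± 2.62 and 134.2 ± 5.29 FPKM. Rab31, an endosomal Rab of the Rab5 subfamily, was at 47.4 to 51.4 FPKM in the knockdown and 51.7 to 56.5 FPKM in WT, with a log2 fold change of -0.11 ± 0.08 (SE; edgeR adjusted p = 0.414).

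Among the other recycling and endosomal genes, Rab22a, Rab11b and Rab4a varied between libraries of the same group, and they were named after their values were seen. Rab22a, which acts in endosomal sorting, was at 10.5, 10.7 and 11.3 FPKM in the knockdown and at 2.25, 9.78 and 10.3 FPKM in WT. WT replicate 1 alone was low, and the log2 fold change of 0.60 had the largest standard error of the 39, 0.49. Without that library it was 0.17 ± 0.08 (SE). Rab11b, of the recycling endosome, was at 8.43, 9.32 and 15.0 FPKM in the knockdown and at 9.99, 10.5 and 9.20 FPKM in WT, with knockdown replicate 3 above all others. Its processed pseudogene Rab11b-ps2 was listed at 12.2 to 19.1 FPKM, a level above that of Rab11b in each of the 6 libraries, so reads may be split between them. Rab4a, of fast recycling, varied within both groups, from 3.23 to 4.67 FPKM and from 2.59 to 4.64 FPKM.

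Of the 10 endoplasmic reticulum and Golgi members at or above 1 FPKM, Rab19 fell and no other was called. Among all genes at that minimum, 15.0% were called in either direction and 8.86% were called lower. The median log2 fold change of the 10 members was 0.04. Rab1b and Rab1a carry cargo from the endoplasmic reticulum to the Golgi. Rab1b was at 65.0, 63.6 and 56.2 FPKM in the knockdown and at 71.8, 71.0 and 71.7 FPKM in WT. Rab1a was at 60.5, 62.8 and 63.6 FPKM and at 65.7, 67.4 and 64.9 FPKM. Both had separate groups and neither passed in edgeR (adjusted p = 0.212 and 0.764). Rab2a, of the same early secretory route, overlapped between groups at 39.2 to 44.0 FPKM and 37.7 to 40.3 FPKM.

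The Golgi pair Rab6a and Rab6b leaned in opposite directions. Rab6b, the less abundant one, was at 3.30, 3.71 and 3.82 FPKM in the knockdown and at 2.88, 2.19 and 1.64 FPKM in WT, with a log2 fold change of 0.73 ± 0.22 (SE; edgeR adjusted p = 0.0730). Rab6a was at 13.0, 11.9 and 9.57 FPKM and at 14.5, 13.4 and 13.1 FPKM, with a log2 fold change of -0.20 ± 0.13 (SE; edgeR adjusted p = 0.360). Neither passed. Rab6b made up 24.2% ± 4.19 (SD, n = 3) of their summed FPKM in the knockdown and 13.9% ± 2.70 in WT.

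Of the 7 secretory members at or above 1 FPKM none was called in edgeR, where 15.0% of all genes at that minimum were. The median log2 fold change was -0.08. Rab8b, of post-Golgi transport to the cell surface, was at 42.2, 48.5 and 46.8 FPKM in the knockdown and 53.3, 56.4 and 53.2 FPKM in WT, with a log2 fold change of -0.20 ± 0.07 (SE; edgeR adjusted p = 0.118). Its paralog Rab8a, named after its values were seen, overlapped between groups at 23.0 to 24.9 FPKM and 24.4 to 25.5 FPKM. Rab10, which delivers secretory and receptor cargo to the plasma membrane, overlapped between groups at 42.2 to 48.6 FPKM and 46.0 to 53.1 FPKM. Rab3d, of regulated secretion, was at 11.9 to 15.4 FPKM and 16.2 to 17.4 FPKM, without overlap and with an edgeR adjusted p of 0.191. The 2 members at this level that belong to none of these routes, Rab28 of the cilium and Rab40c of a ubiquitin ligase, were not called.

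**Figure D3:**
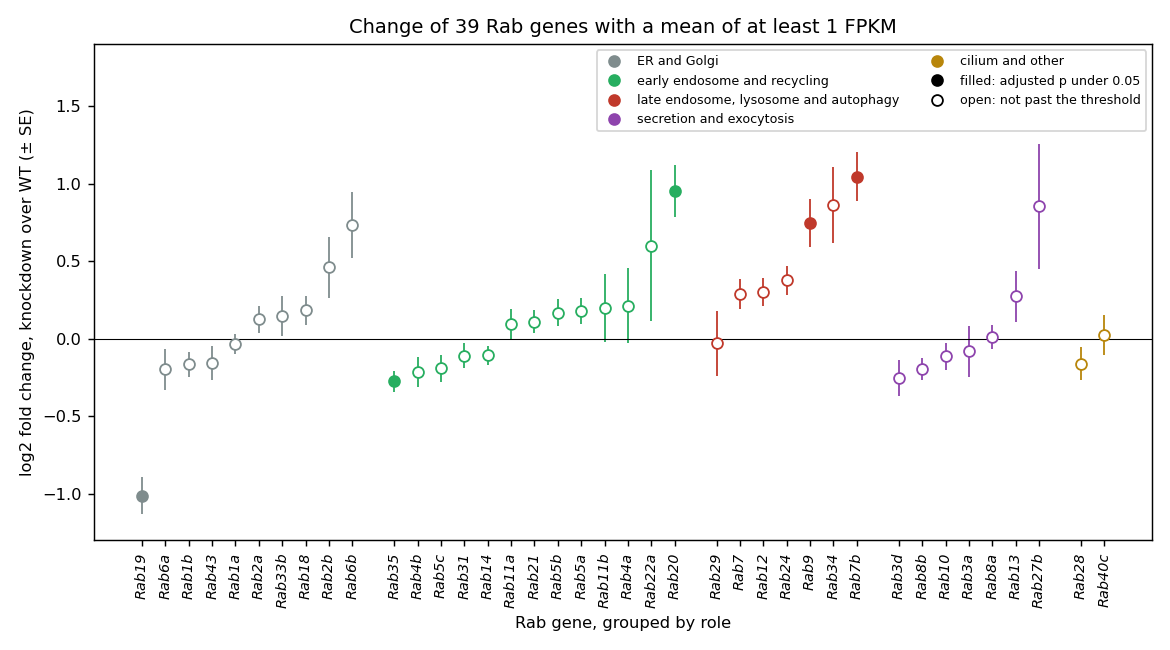
Log2 fold change, knockdown over WT, of the 39 Rab genes with a mean of at least 1 FPKM, grouped by compartment; bars are the standard error and filled points passed an adjusted p under 0.05. In the late endosome, lysosome and autophagy group 6 of 7 points lie above 0, and Rab22a has the widest bar.

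Rab27b, a Rab of granule secretion, was set beside markers of other lineages. Its levels were 2.06, 2.88 and 0.934 FPKM in the knockdown and 1.23, 1.36 and 0.746 FPKM in WT. The summed level of 7 megakaryocyte and platelet markers, 6 of them at or above 1 FPKM on average, was 253.3, 359.2 and 93.9 FPKM in the knockdown and 115.0, 94.4 and 89.3 FPKM in WT. The same first and second knockdown libraries were high in both. In WT, Rab27b was highest in replicate 2 and the marker sum in replicate 1. Of these 7 markers none was called. The sum of 9 mast cell and basophil markers was 9.05, 8.59 and 3.61 FPKM in the knockdown and 3.20, 2.23 and 1.56 FPKM in WT. Of these 9, Prss34, a basophil protease, was the one with a mean of at least 1 FPKM and the one called. It was at 5.75, 4.46 and 1.91 FPKM in the knockdown and 1.35, 0.928 and 0.560 FPKM in WT. The log2 fold change was 2.13 ± 0.49 (SE, edgeR adjusted p = 0.0402). The WT mean of Prss34 was 0.947 FPKM, so it passed the minimum only through the knockdown. Rab37, a mast cell and secretory Rab below 1 FPKM, followed a like course at 0.756, 0.780 and 0.379 FPKM against 0.428, 0.316 and 0.247 FPKM, and Rab44 lay at 0.628 to 1.26 FPKM against 0.5995 to 1.03 FPKM. The part of these cells in the Rab27b, Rab37 and Rab44 values was not tested, and the 3 genes were named after their values were seen.

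Of the 17 members below 1 FPKM, 11 had enough counts to be tested and 2 of those passed, beside 5.08% of all tested genes below 1 FPKM. Rab39, which acts in phagosome acidification and autophagy, was at 0.227, 0.154 and 0.207 FPKM in the knockdown and 0.480, 0.626 and 0.581 FPKM in WT, a log2 fold change of -1.45 ± 0.29 (SE; edgeR adjusted p = 0.0267). Rab39 overlaps the processed pseudogene Rps6-ps3 on the same strand, which was listed at a mean of 18.6 FPKM. The call held in 1 of 6 edgeR fits with a library left out and in 6 of 6 by DESeq2. Rab15, of recycling in neurons, was at 0.517, 0.338 and 2.07 FPKM in the knockdown and 0.112, 0.177 and 0.134 FPKM in WT, a log2 fold change of 2.83 ± 0.71 (SE; edgeR adjusted p = 0.0497). Knockdown replicate 3, the library low in Lyz2, was the highest, and without it the log2 fold change was 1.64. The call held in 1 of 6 edgeR fits with a library left out, the one without knockdown replicate 2, and in 6 of 6 by DESeq2. Rab15 overlaps Fntb on the opposite strand, which was more abundant at a mean of 1.95 FPKM with a log2 fold change of -0.03. The 6 members not tested were Rab3b, Rab3c, Rab9b, Rab33a, Rab39b and Rab40b; Rab3c, Rab9b and Rab39b were listed at 0 in all 6 libraries.

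Across the edgeR fits with 1 library left out, the 5 called Rab genes at or above 1 FPKM kept their direction. Their adjusted p moved across the threshold. Rab7b ran from 0.87 to 1.16 on the log2 scale, Rab20 from 0.85 to 1.11 and Rab9 from 0.60 to 0.86. Rab19 ran from -1.06 to -0.98 and Rab35 from -0.31 to -0.25. Below 1 FPKM, Rab15 ran more widely, from 1.637 to 3.242, and Rab39 from -1.585 to -1.272. Rab24 and Rab34 passed in none of these edgeR fits, and in 2 and 5 of 6 by DESeq2.

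**Figure D4:**
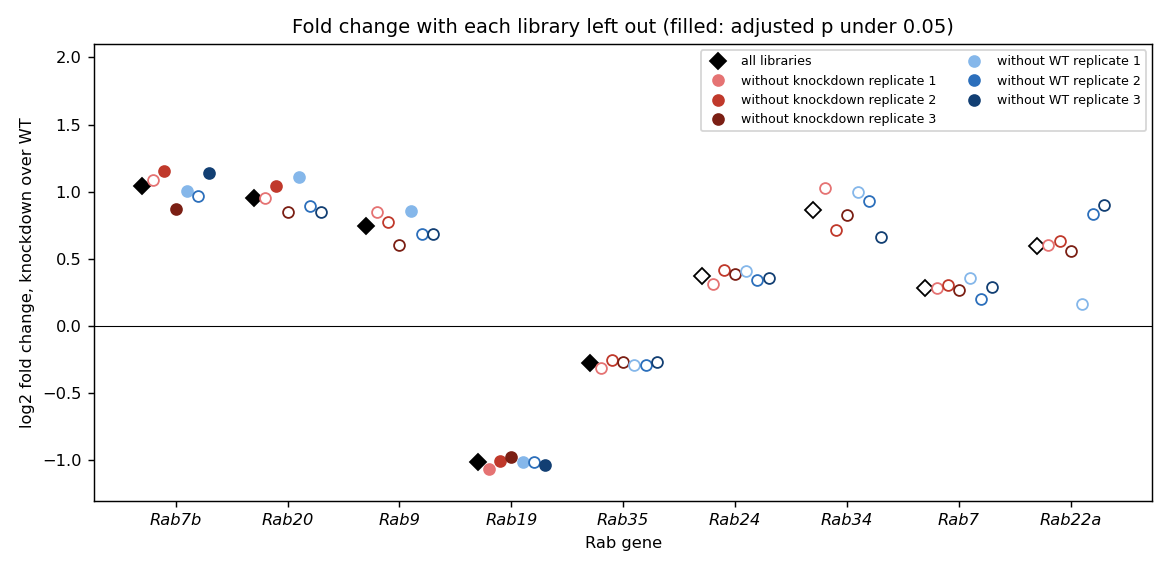
Log2 fold change, knockdown over WT, of the 5 called Rab genes and of Rab24, Rab34, Rab7 and Rab22a in the edgeR fit on all 6 libraries (diamonds) and in fits with 1 library left out each (circles); filled symbols passed an adjusted p under 0.05. All points keep their sign, Rab19 passes in 5 of 6 reduced fits and Rab7b in 4 of 6, no gene passes without WT replicate 2, and Rab22a drops to 0.17 without WT replicate 1.

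The genes that load, extract, inactivate or read Rabs were described from 5 lists of 144 genes. Of these, 126 had a mean of at least 1 FPKM and were tested; 15 rose and 9 fell, or 19.1% called, where all genes at that minimum gave 15.0%, and the median log2 fold change was 0.02. Leaving out 1 library changed these edgeR counts to 6 higher and 3 lower without knockdown replicate 1, 8 and 4 without knockdown replicate 3, 9 and 4 without WT replicate 3, and 0 and 0 without WT replicate 2; without knockdown replicate 2, 4 were lower. Effectors held the largest rise. Of 37 effectors 5 rose and 3 fell. In edgeR the 5 became 4 to 6 with a library left out, except 0 without WT replicate 2, and the 3 became 0 without knockdown replicate 1 or WT replicate 2 and 1 without WT replicate 3. Rilpl1, a relative of the Rab7 effector RILP that binds Rabs phosphorylated by LRRK2, was at 11.4, 9.75 and 14.03 FPKM in the knockdown and at 2.54, 2.22 and 2.02 FPKM in WT. The groups were far apart, and the log2 fold change was 2.42 ± 0.19 (SE; edgeR adjusted p = 0.00963). Its neighbour and relative Rilpl2 was at 85.7, 86.6 and 109.0 FPKM and at 38.1, 33.9 and 32.8 FPKM, a log2 fold change of 1.47 ± 0.13 (SE; edgeR adjusted p = 0.00963). Both are on chromosome 5.

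Optn, a Rab8 effector and autophagy receptor, rose by 1.39 ± 0.16 (SE) on the log2 scale, from 4.59 to 5.25 FPKM in WT to 10.4 to 14.8 FPKM in the knockdown. Myo5a, the myosin that carries Rab-bearing vesicles along actin, rose by 1.04 ± 0.13 (SE), from 19.7 to 22.3 FPKM to 36.6 to 48.2 FPKM. Both passed in edgeR (adjusted p = 0.0103 and 0.0114). The Rab effector Mical1 also rose, and Eea1, the Rab5 tether of early endosomes, fell with Ehbp1l1 and Micall2; these 4 were named to complete the count, after their values were seen. Eea1 was at 9.32, 11.9 and 10.3 FPKM in the knockdown and at 15.8, 16.5 and 17.9 FPKM in WT.

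Of 31 GTPase-activating proteins 6 rose and 1 fell, with a median log2 fold change of 0.10, where 6.1% of all genes rose and 8.86% fell. The 6 became 2 without knockdown replicate 1 or 3, 3 without knockdown replicate 2 or WT replicate 3, 4 without WT replicate 1 and 0 without WT replicate 2 in edgeR, and 4 to 8 in DESeq2 with a library left out. With a library left out, the 1 that fell was called in edgeR only without WT replicate 1. Tbc1d10a, which acts on Rab35 among others, was at 14.9, 13.8 and 16.3 FPKM in the knockdown and at 7.90, 7.68 and 7.92 FPKM in WT, a log2 fold change of 0.99 ± 0.10 (SE; edgeR adjusted p = 0.0101). Its paralog Tbc1d10b was the one that fell, by 0.38 ± 0.08 (SE) on the log2 scale, from 32.8 to 36.0 FPKM in WT to 23.4 to 26.7 FPKM in the knockdown (edgeR adjusted p = 0.0280). Tbc1d16 rose by 0.80 ± 0.11 (SE) and Tbc1d2, which acts on Rab7, by 0.63 ± 0.11 (SE; edgeR adjusted p = 0.0133 and 0.0198). Tbc1d15, another that acts on Rab7, Tbc1d20, which acts on Rab1, and Sgsm2 completed the 6.

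Of 44 exchange factors 2 rose and 5 fell, with a median of 0.03; the 7 are 15.9%, near the 15.0% of all genes. The 5 that fell became 3 without knockdown replicate 1 or WT replicate 3, 2 without knockdown replicate 2 or 3, and 0 without WT replicate 2 in edgeR. The 2 that rose became 1 without knockdown replicate 2 or 3, and 0 without knockdown replicate 1 or WT replicate 2. Rin2, which loads Rab5, fell by 1.01 ± 0.12 (SE) on the log2 scale, from 5.06 to 5.78 FPKM in WT to 2.30 to 2.93 FPKM in the knockdown (edgeR adjusted p = 0.0112). Madd, which loads Rab3 and Rab27, fell by 0.51 ± 0.07 (SE), and Dennd4b, of the Rab10 exchange factor family, by 0.50 ± 0.08 (SE; edgeR adjusted p = 0.0114 and 0.0186). Dennd2a, which acts on Rab9, rose by 1.25 ± 0.18 (SE), from 1.22 to 1.63 FPKM in WT to 2.70 to 3.34 FPKM (edgeR adjusted p = 0.0140). Trappc2l also rose, and Dennd1c and Rab3il1 fell. None of the 8 prenylation and extraction genes, which attach the lipid anchor or keep Rabs soluble, was called, with a median of -0.01; without WT replicate 1, 2 of them were called higher in edgeR. Of 6 Rab-like genes, Ift22 rose by 0.54 ± 0.10 (SE) and Cracr2a by 0.88 ± 0.17 (SE) on the log2 scale (edgeR adjusted p = 0.0228 and 0.0235). Neither was called in edgeR without knockdown replicate 1 or 3 or WT replicate 2 or 3. Cracr2a, a large calcium-binding Rab, was near the minimum at 1.21 to 1.65 FPKM in the knockdown and 0.711 to 0.848 FPKM in WT, and it passed the minimum only through the knockdown.

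**Figure D5:**
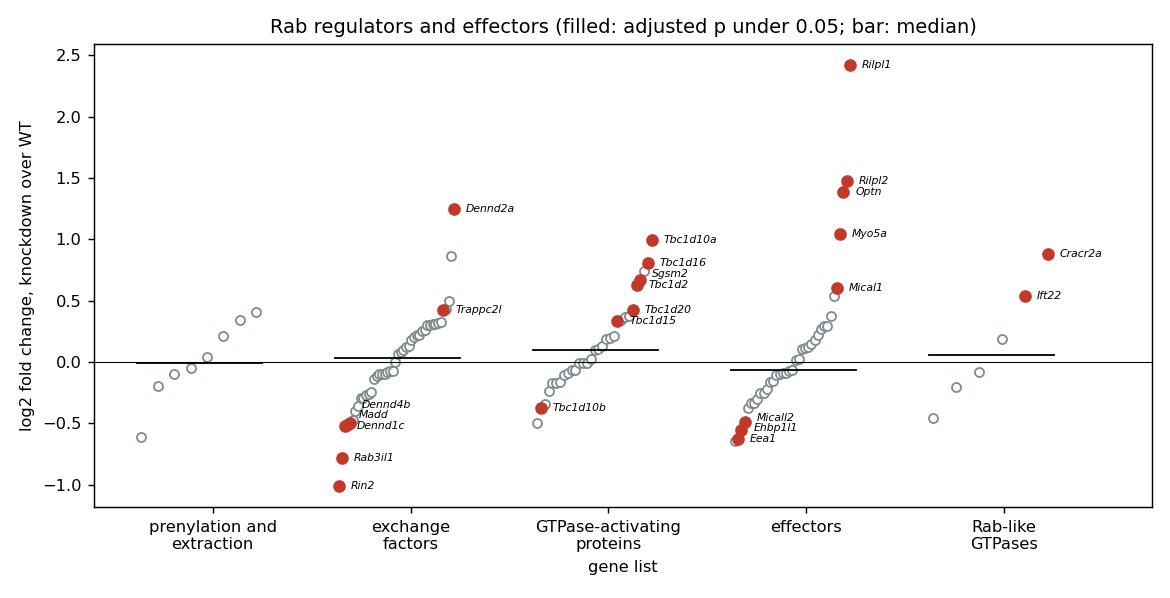
Log2 fold change, knockdown over WT, of the 126 Rab regulators and effectors with a mean of 1 FPKM or more, in 5 lists, each sorted by its change; filled points passed an adjusted p under 0.05 in edgeR and bars mark list medians. Medians lie near 0 in all lists, while Rilpl1 at 2.42, Rilpl2 at 1.47 and Optn at 1.39 stand above the other effectors.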

How the data were processed

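RNA from 3 Lamtor5 knockdown and 3 WT macrophage samples was made into libraries with a SMARTER mRNA-Seq kit after column extraction, per the labels' protocols. The authors trimmed 141-base paired reads with cutadapt 1.9 (overlap of 5 bases, minimum length of 100 bases), as the trimming logs record per the file headers. The submitters' processing notes name GRCm38 (mm10) as the build. Aligner, counting program and strand setting: not given in the sources used here. In the authors' deposited table stand 1 count and 1 FPKM per gene and library. The deposited counts are whole numbers but estimated counts: they sum to 2.95 to 3.01 per read pair kept, and 15.6% to 17.2% of values from 1 to 30 are exactly 4. They were used as deposited. The deposited FPKM is 0.0001 where the count is 0, and this was read as 0. No binomial interval was made, as counts exceed read pairs.

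Counts were tested in edgeR 4.0.16 (R 4.3.3): filterByExpr with a minimum count of 10, TMM scaling, a quasi-likelihood fit on group alone, and adjustment by Benjamini-Hochberg over 18164 genes at 0.05. The SE is the log2 fold change divided by the square root of F. The script was tested on simulated data, with 17473 genes tested and 5 false calls. In this simulation sensitivity was low for small effects. At a simulated ratio of 1.5 it called 5 out of 67 genes. At a ratio of 2 it called 16 out of 64, and at 3 it called 35 out of 64. Only these few genes were changed in the simulation, whereas 2058 of 18164 were called in the data. Fewer changed genes make the adjustment stricter, so these shares do not carry over to the data. A gene left uncalled may still differ between the groups. Whether the libraries of a group are separate animals is not in the labels; p-values then measure only the spread between these samples, which may be technical. Same-numbered libraries did not deviate together (r = 0.0458, 0.0361 and -0.0108), so the numbers were not taken as pairs.

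The members, compartment groups, regulator lists and marker lists were chosen with earlier results of these data known. Named by rule were members at or above 1 FPKM past the threshold and the 12 highest by mean FPKM, filled to 20 by the smallest p, and of each regulator list up to 4 called genes with the smallest p. Other members, and regulators named only to complete a count, were named after their values were seen. Gene coordinates are those of the table, and 50 of 56 members have the same ones in GENCODE M21. Promoter sequences and their start sites are RefSeq's, GRCm38.p6. The alternatives tried were DESeq2 1.42.0, size factors by RLE, no filter on counts and counts divided by 3. A replicate block, other FPKM minimums and each library left out were also tried. So was limma 3.58.1, on log2(FPKM + 1) with and without a minimum of 1 FPKM and on log2(FPKM + 0.1) with it. Counts divided by 4 and DESeq2 with each library left out were added after seeing the data.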

Additional observations from a re-analysis of the deposited data

How the results depend on the processing

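No alternative reversed the direction of a called Rab gene. Against 3 Rab genes higher and 2 lower, DESeq2 gave 6 higher, the fit with no filter on low counts gave 1 lower, and the replicate block, though the numbers do not pair the libraries, gave 1 higher (Rab7b) and 1 lower (Rab19). Leaving out 1 library gave 0 to 4 higher and 0 to 1 lower in edgeR, and 4 to 9 higher (5 without knockdown replicate 3, 9 without WT replicate 1) and 1 to 3 lower in DESeq2. Of 15 regulators and effectors higher and 9 lower, limma with no minimum FPKM gave 9 higher, DESeq2 14 lower, the replicate block 9 higher and 4 lower, and leaving out 1 library 0 to 17 higher and 0 to 10 lower in edgeR and 13 to 20 higher and 8 to 14 lower in DESeq2. Lamtor5 ranged from -1.10 to -1.04 on the log2 scale over the libraries left out and missed the threshold only without WT replicate 2 in edgeR (-1.09, adjusted p = 0.0616). Over all genes tested, 2058 were called; DESeq2 called 3635, the fit with no count filter 1205, the block 728, and edgeR called 377 without knockdown replicate 1, 1130 without knockdown replicate 2, 781 without knockdown replicate 3, 2334 without WT replicate 1, 0 without WT replicate 2 and 625 without WT replicate 3. Of the 21 alternatives per gene, Rab19 passed in 20, Rab7b in 19, Rab20 in 16, Rab9 in 13 and Rab35 in 9. The SE of the log2 fold change had a median of 0.11 and a highest value of 0.49 over the 39 Rab genes, which limits how small a change 3 libraries per group can show.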
